A study of Mus musculus with 40 samples.

Results

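The NR4A orphan nuclear receptors are the 3 genes Nr4a1 (Nur77), Nr4a2 (Nurr1) and Nr4a3 (Nor-1). They were chosen by family membership, as 3 of the 23621 rows of the count table, and all 3 passed the filter on low counts in both muscles, among 15097 genes tested in quadriceps and 14523 in gastrocnemius. All mice were C57BL/6. In quadriceps, 4 groups of 3 mice had run to exhaustion on a treadmill. Their session was at ZT0 (zeitgeber time, hours from lights on) or at ZT12, and muscle was taken either straight after it (+0h) or after 3 h of recovery (+3h). Another 4 groups of 3 were sedentary and were sampled at ZT0, ZT4, ZT12 or ZT16. Run mice were sampled at ZT0.5 or ZT12.5 (+0h) and at ZT3.5 or ZT15.5 (+3h). Each run group was set against the sedentary group nearest in time of day, not one of exactly the same time. In gastrocnemius, 4 groups of 4 mice had wheel access by day or by night and were sampled at ZT4 or ZT16; no gastrocnemius group without a wheel was analysed here. The labels call both muscles glycolytic, and the sources used here do not give how long or how far the mice ran.

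NR4A proteins bind DNA as monomers at the NBRE element, or as dimers with RXR receptors in the case of Nr4a1 and Nr4a2. Their ligand pocket is filled by bulky side chains, so their activity follows mainly from how much protein is made. The genes are classical immediate early genes, switched on through cAMP, calcium and CREB, and in muscle they are known for induction by beta-adrenergic signals and contraction and for control of glucose and lipid use.

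Total estimated counts a library were 27352875 to 79491649 for quadriceps and 45010256 to 70033483 for gastrocnemius, and no pair of libraries in a group agreed within sampling noise. Fast fibre markers such as Ckm and Acta1 summed to between 157176 and 239788 CPM (counts scaled to library size) in every quadriceps library and slow fibre markers to between 67.6 and 2328 CPM, and 0 of the 8 fast fibre markers was at 0 in any group. Summed neutrophil markers reached at most 4.49 CPM. This is bulk tissue, in which fewer cells of a type and less RNA per cell cannot be told apart.

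The promoters are shown because the family is known for CREB control and its members moved unlike each other. Each window runs from upstream of a single RefSeq start site of the gene to just past it (GRCm38.p6). The core of the cAMP response element (CRE), TGACG on either strand, is in capitals.
Nr4a1, chr15:101266596-101266895, plus strand: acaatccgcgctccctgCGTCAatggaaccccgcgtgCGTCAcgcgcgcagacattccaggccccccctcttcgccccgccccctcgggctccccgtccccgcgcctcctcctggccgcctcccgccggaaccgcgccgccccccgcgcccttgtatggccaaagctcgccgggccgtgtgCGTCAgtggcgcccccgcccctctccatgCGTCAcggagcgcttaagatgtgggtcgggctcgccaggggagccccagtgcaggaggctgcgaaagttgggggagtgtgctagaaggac
Nr4a2, chr2:57123954-57124253, minus strand: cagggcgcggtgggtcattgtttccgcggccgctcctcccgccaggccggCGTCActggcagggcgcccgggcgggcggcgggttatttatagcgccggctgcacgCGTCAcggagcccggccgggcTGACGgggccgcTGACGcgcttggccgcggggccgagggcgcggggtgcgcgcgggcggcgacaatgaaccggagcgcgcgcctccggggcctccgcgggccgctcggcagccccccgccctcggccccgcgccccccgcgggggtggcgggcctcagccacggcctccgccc
Nr4a3, chr4:48045055-48045354, plus strand: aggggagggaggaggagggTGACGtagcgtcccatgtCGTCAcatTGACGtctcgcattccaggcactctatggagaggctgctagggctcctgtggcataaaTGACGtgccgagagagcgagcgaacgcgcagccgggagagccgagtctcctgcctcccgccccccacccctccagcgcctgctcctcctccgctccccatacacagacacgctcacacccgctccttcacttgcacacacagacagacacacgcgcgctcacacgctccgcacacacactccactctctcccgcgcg

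Each of the 3 windows held 4 matches to this 5-base core. Of the 32851 RefSeq promoter windows of the same length, 20.8% held at least 1 match and 0.231% held 4 or more. The core contains a CG pair, and the 3 windows were rich in G and C (72.3%, 81.7% and 64.7% for Nr4a1, Nr4a2 and Nr4a3, against a median of 52.7% over all windows). Counted from the start site used for each window, the nearest core began at position -40 in Nr4a1, -111 in Nr4a2 and -147 in Nr4a3. These positions hold for that start site only, and the genes have 4, 6 and 4 annotated transcripts. The annotated gene starts of Nr4a1 (101253902) and Nr4a3 (48045078) lie upstream of the start sites used, that of Nr4a3 within its window. The full CRE (TGACGTCA, in 1.79% of all windows) and the NBRE (AAAGGTCA, 1.51%), searched on both strands, had 0 matches in the 3 windows. The CArG box (1.63%) and a strict form of the MEF2 site (0.557%), searched likewise, also had 0 matches. The strict form has C as its first base and G as its last. Other forms of the MEF2 site were not searched. The Nr4a2 window holds a run of letters that differs from the strict form only in its first base. A match here is a run of letters, not a measured binding site.

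The genes lie on chromosome 15 (Nr4a1, gene identifier 15370, 101253902 to 101274795), chromosome 2 (Nr4a2, 18227, 57106830 to 57124003) and chromosome 4 (Nr4a3, 18124, 48045078 to 48086447; RefSeq, GRCm38.p6). Per kilobase of annotated exon, Nr4a1 was the most abundant member in all 12 groups. On that scale Nr4a1 averaged 196 CPM, Nr4a2 14.8 CPM and Nr4a3 8.61 CPM at +0h of the ZT0 session, against 49.7, 0.636 and 0.494 CPM in sedentary ZT0 muscle. At +3h of the ZT12 session Nr4a3 reached 31.6 CPM per kilobase, beside 84.3 for Nr4a1 and 1.17 for Nr4a2. In gastrocnemius the level per kilobase ran from 30.5 to 39.1 CPM for Nr4a1, from 0.145 to 0.266 for Nr4a2 and from 0.168 to 2.49 for Nr4a3. The gastrocnemius values of Nr4a2 rest on 26 to 76 counts a library.

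At the end of a run, all 3 members were higher than in the sedentary group nearest in time of day. Fold changes were larger for Nr4a2 and Nr4a3 than for Nr4a1. In the ZT0 session this was 3 of 3 members called higher, where 6.82% of all genes were called and 4.29% were called higher. Nr4a1 stood at 695, 729 and 639 CPM in +0h mice of that session, against 162, 161 and 200 CPM in sedentary ZT0 mice. Nr4a2 had 68.3, 71.7 and 40.6 CPM at +0h, against 1.86, 2.27 and 3.62 CPM in sedentary mice. Nr4a3 had 64.1, 53.9 and 36.7 CPM at +0h, against 1.53, 1.82 and 5.53 CPM in sedentary mice. No run library overlapped a sedentary one for any member. The log2 fold change was 1.98 for Nr4a1 (SE 0.29, edgeR adjusted p = 0.00052), 4.56 for Nr4a2 (SE 0.76, adjusted p = 0.0015) and 4.16 for Nr4a3 (SE 0.74, adjusted p = 0.0025). Set against sedentary ZT4 muscle instead, Nr4a2 was higher by 2.01 and no longer passed (adjusted p = 0.076).

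In the ZT12 session 4.6% of all genes were called and 3.19% were called higher, and again 3 of 3 members were called higher. Nr4a1 had 1059, 892 and 893 CPM at +0h of the ZT12 session, against 264, 364 and 354 CPM in sedentary ZT12 mice (log2 fold change 1.53, SE 0.28, adjusted p = 0.0031). Nr4a2 had 70.3, 65.4 and 31.6 CPM at +0h, against 3.35, 1.36 and 2.01 CPM in sedentary mice (4.64, SE 0.77, adjusted p = 0.0015). Nr4a3 had 82.3, 58.8 and 32.9 CPM at +0h, against 2.98, 1.24 and 1.41 CPM in sedentary mice (4.96, SE 0.78, adjusted p = 0.0011). All run libraries stood above all sedentary libraries. In log2 fold change Nr4a3 ranked 10th and Nr4a2 12th among the 15097 genes of this comparison, and Nr4a1 ranked 152nd.

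Replicate 3 of each +0h group was the lowest of its group for Nr4a2 and Nr4a3, and the ZT0 one was also the library with the fewest counts of all. The difference of the +0h responses, ZT12 minus ZT0 session, was -0.45 for Nr4a1 (95% interval -1.27 to 0.38), 0.09 for Nr4a2 (-2.01 to 2.18) and 0.80 for Nr4a3 (-1.31 to 2.92). Leaving out 1 library gave 0.017 (without sedentary ZT0 replicate 3) to 1.29 (without sedentary ZT12 replicate 1) for Nr4a3 and -0.22 to 0.49 for Nr4a2. None of the 3 passed, and edgeR called 0 of 15097 genes (0%) for this difference, with 1912 at an unadjusted p under 0.05 and 16 called by DESeq2. Without +0h ZT0 replicate 2 the count over all genes was 322. A difference between sessions within these intervals was not detectable with 3 mice a group.

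**Figure D1:**
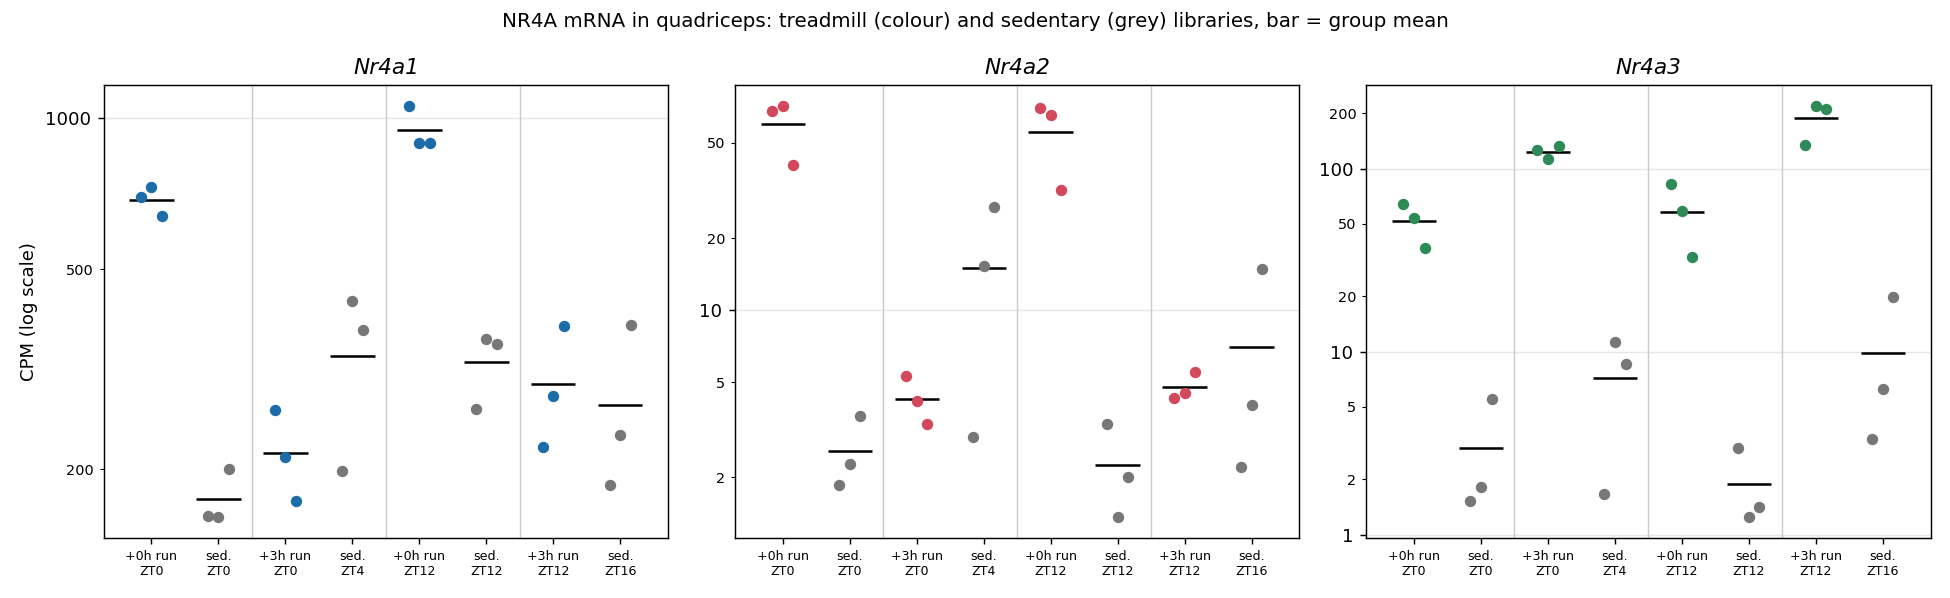
Level of each NR4A gene in CPM (log axis) in the 24 quadriceps libraries, with points for single mice and bars for group means; coloured points are treadmill mice and grey points the sedentary group each is set against. Nr4a1 and Nr4a2 are highest at +0h, whereas Nr4a3 stands at 113 to 221 CPM at +3h, against 32.9 to 82.3 CPM at +0h.

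After 3 h of recovery Nr4a3 was higher than in sedentary muscle in both sessions, while Nr4a1 and Nr4a2 did not pass the test in either. For the ZT0 session 1 of 3 members was called against sedentary ZT4 muscle, where 13.6% of all genes were called and 6.96% were called higher. Nr4a3 stood at 126, 113 and 132 CPM in +3h mice of that session, against 1.66, 11.3 and 8.60 CPM in sedentary ZT4 mice. Its log2 fold change of 4.13 (SE 0.72, adjusted p = 0.0011) was the 5th largest of 15097. In a fit of these 6 libraries alone it was 4.12 and just missed the threshold (adjusted p = 0.052).

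Nr4a1 stood at 263, 212 and 173 CPM in +3h mice, against 199, 433 and 378 CPM in sedentary ZT4 mice (-0.64, SE 0.28, adjusted p = 0.15). Nr4a2 had 5.28, 4.17 and 3.32 CPM at +3h, against 2.96, 15.2 and 27.0 CPM in sedentary ZT4 mice (-1.82, SE 0.69, adjusted p = 0.096). The groups overlapped for both genes with sedentary ZT4 replicate 1 low and the other 2 high. Without that sedentary library Nr4a1 (-0.91, adjusted p = 0.034) and Nr4a2 (-2.32, adjusted p = 0.024) passed as lower after the run. Against sedentary ZT0 muscle their sign turned, to 0.31 for Nr4a1 and 0.73 for Nr4a2, without a call.

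For the ZT12 session, set against sedentary ZT16 muscle, 17.2% of all genes were called and 8.7% were called higher, and 1 of 3 members was called. Nr4a3 had 134, 221 and 213 CPM at +3h of the ZT12 session, against 3.33, 6.28 and 19.8 CPM in sedentary ZT16 mice (4.27, SE 0.71, adjusted p = 0.00055), the 6th largest log2 fold change of all genes. Nr4a1 had 222, 280 and 386 CPM at +3h, against 186, 234 and 387 CPM in sedentary ZT16 mice (0.14, SE 0.28, adjusted p = 0.80). Nr4a2 had 4.29, 4.51 and 5.50 CPM at +3h, against 2.21, 4.03 and 14.9 CPM in sedentary ZT16 mice (-0.56, SE 0.68, adjusted p = 0.65). In the same comparison 5 of 8 fast fibre markers were called higher (list median 0.33; sums of 210321 to 233113 CPM at +3h, against 166834 to 189725 CPM in sedentary ZT16 mice). Of the 4 neutrophil markers tested 2 were called higher (median 2.51), with sums of 0.982 to 4.49 CPM at +3h, against 0.943 to 1.48 CPM; the part of these markers was not tested. Of the members, only Nr4a3 separated the +3h mice from the sedentary mice without overlap, in both sessions. The differences of the +3h responses between sessions, for which 1.59% of all genes were called, were 0.78 for Nr4a1 (95% interval -0.05 to 1.61), 1.25 for Nr4a2 (-0.79 to 3.29) and 0.14 for Nr4a3 (-1.77 to 2.05), with 0 of 3 called. The Nr4a2 difference was 0.51 without sedentary ZT4 replicate 3 and 2.41 without sedentary ZT16 replicate 3, and the Nr4a3 difference ran from -0.36 to 1.16 with 1 library left out.

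From the end of the run to 3 h later, Nr4a1 and Nr4a2 fell in both sessions; this comparison uses the same treadmill mice as those before it. In the ZT0 session Nr4a1 differed by -1.67 (SE 0.29, adjusted p = 0.00070) and Nr4a2 by -3.83 (SE 0.72, adjusted p = 0.0019), +3h minus +0h on the log2 scale. In the ZT12 session the values were -1.68 (SE 0.29, adjusted p = 0.00051) for Nr4a1 and -3.55 (SE 0.71, adjusted p = 0.0023) for Nr4a2. That is 2 of 3 members lower in each session, where 14.1% of genes were called and 7.8% were lower in the ZT0 session, and 15.8% were called and 8.47% were lower in the ZT12 session. Nr4a3 was higher at +3h than at +0h in all libraries of both sessions, by 1.26 (SE 0.63, adjusted p = 0.21) and 1.70 (SE 0.64, adjusted p = 0.082), without a call. The +3h and +0h mice were sampled at different times of day, and set relative to their own sedentary controls the Nr4a3 changes were -0.03 and -0.69.

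The ratio of 2 members within a library does not depend on scaling between libraries. It was computed as a difference of log2 CPM, not per length, and compared by exact two-sided permutation of libraries within matched groups, with 6 ratio tests adjusted together. Nr4a3 over Nr4a1 was -1.06, -0.90 and -0.38 at +3h of the ZT0 session, against -6.87, -5.25 and -5.45 in sedentary ZT4 mice, without overlap. Over the 4 matched pairs of groups this ratio was higher in treadmill mice by 3.81 on the log2 scale, in 4 of 4 pairs (adjusted p = 7.5e-05, with the raw p of 1.25e-05 the smallest that these permutations can give). Nr4a3 over Nr4a2 was higher in treadmill mice by 2.66 (adjusted p = 0.006), in 3 of 4 pairs: by 5.84 and 4.73 at +3h of the ZT0 and ZT12 sessions, but by -0.22 and 0.31 at +0h. Nr4a2 over Nr4a1 was higher by a mean of 1.15 (adjusted p = 0.024), in 2 of 4 pairs. It was higher by 2.55 and 3.08 at +0h of the ZT0 and ZT12 sessions, but differed by -0.76 and -0.28 at +3h. Without sedentary ZT4 replicate 1 the mean was 1.00 (adjusted p = 0.052). From +0h to +3h, Nr4a3 over Nr4a1 was higher by 3.24, Nr4a3 over Nr4a2 by 5.16, and Nr4a2 over Nr4a1 differed by -1.93, each in 2 of 2 sessions (adjusted p = 0.006 each, raw p = 0.005, the smallest that 400 permutations can give).

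**Figure D2:**
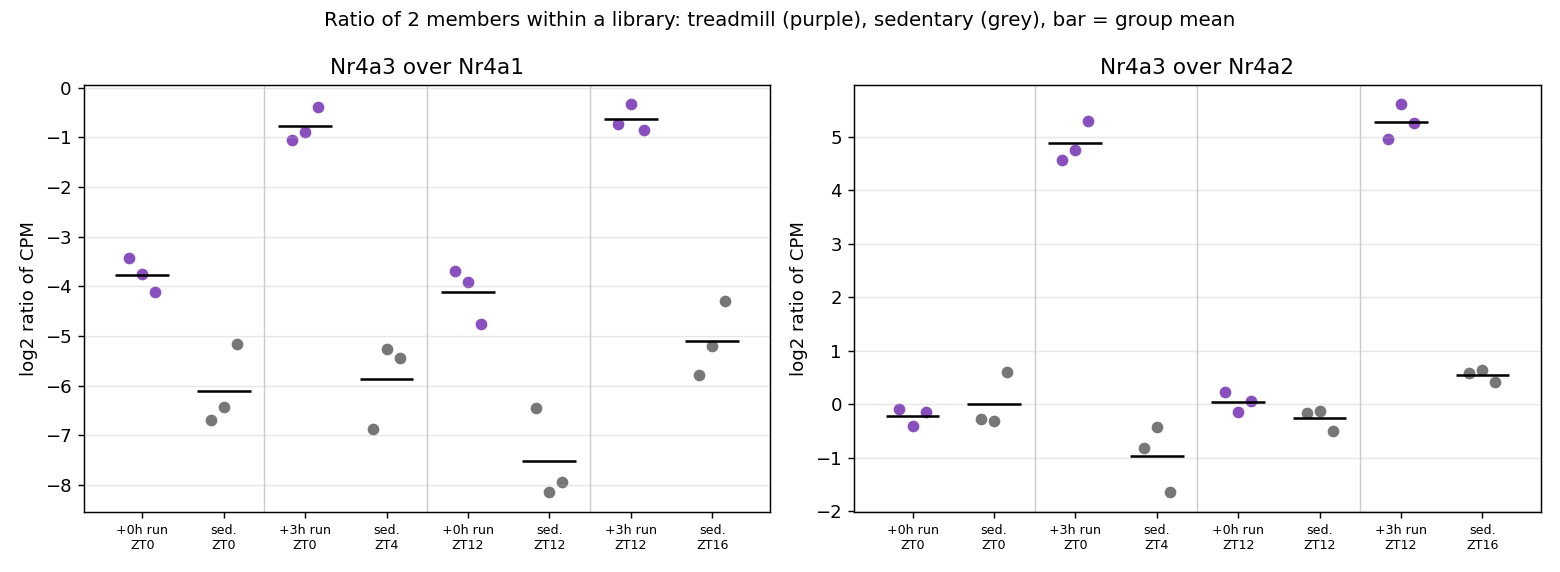
Log2 ratio of Nr4a3 to Nr4a1 (left) and to Nr4a2 (right) in each quadriceps library, with treadmill mice in purple, sedentary mice in grey and bars for group means. Against Nr4a2 the ratio lies near 0 at +0h and in most sedentary libraries and between 4.57 and 5.60 at +3h.

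Sedentary quadriceps was not flat. Across the 4 sedentary groups, where 17.1% of all genes differed, Nr4a2 passed an F test (range of group means 2.75 on the log2 scale, adjusted p = 0.024), while Nr4a1 (0.95, adjusted p = 0.073) and Nr4a3 (2.39, adjusted p = 0.073) did not. The highest sedentary values came from single mice. Sedentary ZT4 replicates 2 and 3 and sedentary ZT16 replicate 3 were high for all 3 members, and the range within sedentary ZT4 was 9.14-fold for Nr4a2, 6.83-fold for Nr4a3 and 2.18-fold for Nr4a1. The Nr4a2 call was lost without sedentary ZT0 replicate 1, ZT4 replicate 2, ZT4 replicate 3 or ZT12 replicate 2 (2.75, 2.73, 2.00 and 2.55). Between sedentary ZT12 and ZT0, where 16.1% of genes were called and 7.58% were higher, 1 of 3 members passed: Nr4a1 stood at 264, 364 and 354 CPM in sedentary ZT12 mice, against 162, 161 and 200 CPM in sedentary ZT0 mice (0.91, SE 0.28, adjusted p = 0.036). This call was lost without any 1 of 5 of the 6 libraries (0.83 to 1.02) and held without sedentary ZT12 replicate 1. In this comparison 5 of 7 endothelial markers were called lower (list median -0.54; sums of 200.1 to 248 CPM in sedentary ZT12 mice, against 279 to 331 CPM in sedentary ZT0 mice) and 3 of 8 fast fibre markers higher (median 0.11). Adipocyte markers had a median of 2.13, with 1 of 6 called higher and overlapping sums of 267 to 1501 CPM, against 90.8 to 405 CPM; the part of these markers was not tested. Nr4a2 (-0.20) and Nr4a3 (-0.63) did not pass.

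Ordered by level in quadriceps, Nr4a1 ran from the +0h ZT12 group (948 CPM) and the +0h ZT0 group (688 CPM), each clear of the next, to 6 lower groups of which every neighbour overlapped, ending with sedentary ZT0 (174 CPM). Nr4a2 had the 2 +0h groups on top, overlapping each other (60.2 and 55.8 CPM), and clear of the other 6, which overlapped in turn. Nr4a3 had its +3h groups on top, ZT12 (189 CPM) clear of ZT0 (124 CPM) and that clear of the +0h groups (58.04 and 51.5 CPM), which overlapped each other, the lower of them clear of the sedentary groups.

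In gastrocnemius Nr4a3 had the largest differences of the 3 members. At ZT4, within the light phase, it was high in mice with wheel access by day; at ZT16, within the dark phase, it was high in mice with access by night. Nr4a3 had 16.7, 15.4, 10.6 and 17.0 CPM in day mice at ZT4, against 0.824, 0.772, 0.426 and 2.00 CPM in night mice at ZT4. The log2 fold change of 3.80 (SE 0.47, adjusted p = 0.00036) was the largest of all 14523 genes, in a comparison that called 13.1% of genes (6.36% higher) and 1 of 3 members. At ZT16 it had 1.86, 1.12, 1.33 and 0.715 CPM in day mice, against 2.93, 5.92, 12.03 and 8.12 CPM in night mice. There 0.565% of genes were called (0.289% lower), and Nr4a3 was the 1 member of 3 (-2.55, SE 0.47, adjusted p = 0.038). With 1 of the 8 libraries left out at a time, the call held in 1 fit, without night ZT16 replicate 1 (-2.81), and leaving out any other library gave -2.78 to -2.20 with adjusted p values of 0.053 to 0.13.

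Within day mice Nr4a3 was lower at ZT16 than at ZT4 by a log2 fold change of -3.59 (SE 0.47, adjusted p = 0.00024), and within night mice it was higher by 2.75 (SE 0.48, adjusted p = 0.0015). The difference of these time effects, day minus night access, was -6.35 (SE 0.67, adjusted p = 0.00012), the most negative of all 14523 genes. It was called in all 16 fits that left out 1 library (-7.01 to -6.00). The difference passed for 2 of 3 members, where 9.74% of all genes were called and 5.07% were negative. In the time comparison within day mice 2 of 3 members were called lower, where 14.9% of genes were called and 7.17% were lower. Within night mice 1 of 3 was called higher, where 18.8% of genes were called and 9.41% were higher.

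For Nr4a2 1 of the 4 pairwise comparisons in gastrocnemius passed, ZT16 against ZT4 in day mice. It had 1.30, 1.00, 1.03 and 0.975 CPM in day mice at ZT4, against 0.867, 0.813, 0.553 and 0.651 CPM in night mice (0.59, SE 0.20, adjusted p = 0.061), without overlap and without a call. At ZT16 it had 0.679, 0.531, 0.676 and 0.465 CPM in day mice, against 0.626, 0.938, 0.964 and 0.586 CPM in night mice (-0.40, adjusted p = 0.44). Within day mice it was lower at ZT16 than at ZT4 by a log2 fold change of -0.88 (SE 0.21, adjusted p = 0.0066). Within night mice, where Nr4a3 was called higher, Nr4a2 differed by 0.10 (adjusted p = 0.79), and by -0.010 to 0.23 with 1 library left out. The difference of time effects was -0.99 (SE 0.29, adjusted p = 0.041); it was lost in 10 of 16 leave-one-out fits (-1.11 to -0.87 over all 16) and with either lane alone.

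Nr4a1, the most abundant member, had 125, 135, 123 and 157 CPM in day mice at ZT4, against 129, 117, 105 and 179 CPM in night mice (0.03, 95% interval -0.44 to 0.50). At ZT16 it had 98.0, 95.4, 113 and 122 CPM in day mice, against 141, 83.4, 138 and 186 CPM in night mice (-0.36, interval -0.83 to 0.11). No Nr4a1 comparison in gastrocnemius passed, and its difference of time effects was -0.38 (interval -1.05 to 0.28).

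**Figure D3:**
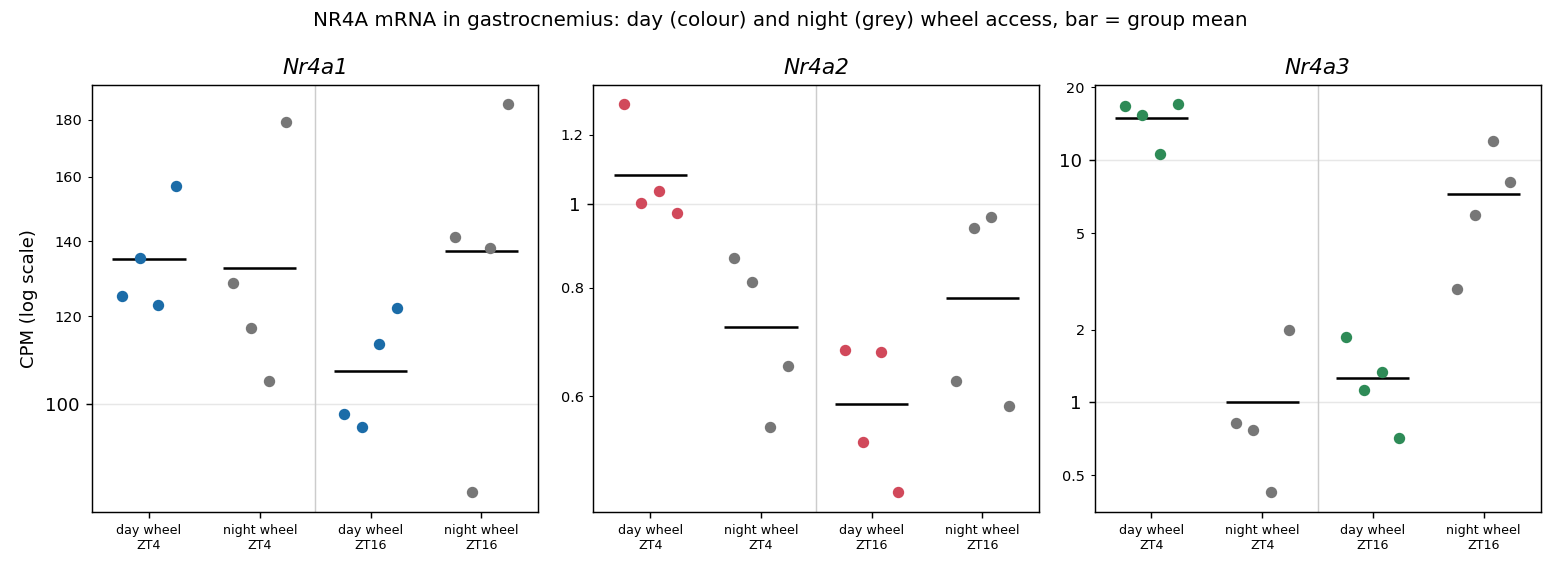
Level of each NR4A gene in CPM (log axis) in the 16 gastrocnemius libraries, with points for single mice and bars for group means; day wheel access is coloured and night access grey. Nr4a3 lies at 10.6 to 17.0 CPM in day mice at ZT4, against 0.426 to 2.00 CPM in night mice, and the order turns round at ZT16.

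**Figure D4:**
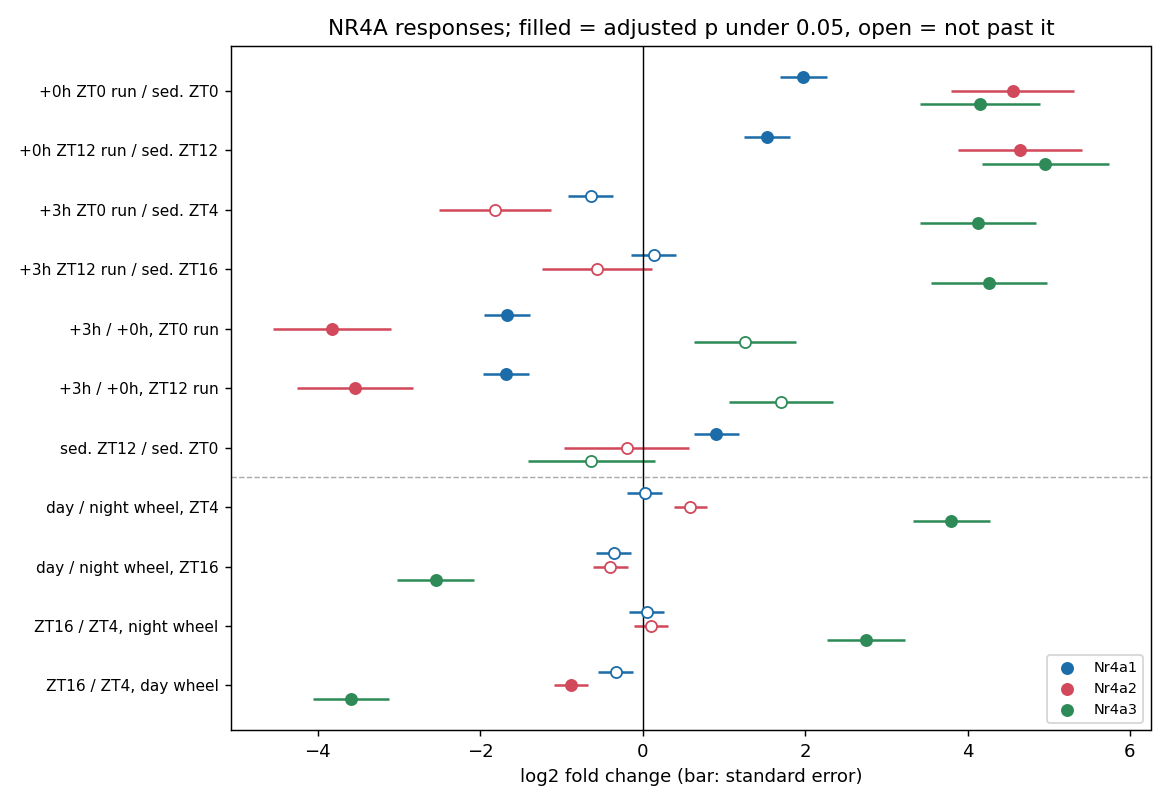
Log2 fold change with its standard error for the 3 members in 11 comparisons of 2 groups, quadriceps above the dashed line and gastrocnemius below it; filled points have an adjusted p under 0.05. The 3 members agree in direction at +0h, and against sedentary muscle at +3h, and in gastrocnemius, Nr4a3 has the largest fold changes of the 3.

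Upstream genes were looked at as a list of mRNAs, in comparisons that called 6.82% and 4.6% of all genes at +0h of the ZT0 and ZT12 sessions. For a list of 26 genes, 0 calls lie near those shares. Of 26 genes for cAMP and calcium signalling (protein kinase A, CREB and its coactivators, calcineurin, CaM kinases, MEF2, class II histone deacetylases), edgeR called 0 in each +0h comparison, with 5 at an unadjusted p under 0.05 in each and list medians of -0.01 and 0.06 for the ZT0 and ZT12 sessions. At +3h, 1 rose and 4 fell in the ZT0 session, and 2 rose and 4 fell in the ZT12 session, 5 and 6 of 26 genes where 13.6% and 17.2% of all genes were called; with list medians of 0.03 and 0.0013, these shares lie near those of all genes. Hdac4, a class II deacetylase that holds MEF2 in check, rose by 0.86 (SE 0.17) and 0.93 (SE 0.17), and the CREB coactivator Crtc3 fell by 0.45 (SE 0.08) and 0.30 (SE 0.08).

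Other genes known to answer to cAMP rose at the end of the run. Of 12 on the list, 11 rose at +0h of the ZT0 session and 10 at +0h of the ZT12 session, where 4.29% and 3.19% of all genes were called higher. The median log2 fold change was 2.18 and 1.94, against 0.00029 and -0.0034 over all tested genes. The list was chosen with earlier results of these data known. The AP-1 subunit Junb rose by 4.85 and 4.59, the kinase Sik1 by 2.87 and 2.58, the phosphatase Dusp1 by 2.20 and 2.13, and Crem, a CREB relative, by 0.99 and 1.02. From +0h to +3h, 8 of the 12 fell in each session (median -1.91 and -1.49), where 7.8% and 8.47% of all genes were called lower. At +3h Ppargc1a, the coactivator of mitochondrial genes, stood at 237 CPM in the ZT0 session against 22.9 CPM in sedentary ZT4 mice (3.37, SE 0.12, adjusted p = 2.1e-13) and at 319 CPM in the ZT12 session against 29.6 CPM in sedentary ZT16 mice (3.43, SE 0.12, adjusted p = 1.5e-13). At +0h it did not pass (-0.16, adjusted p = 0.41, and 0.26, adjusted p = 0.24).

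Genes linked to NR4A in muscle are glycogen, glucose and lipid genes found by others to respond to gain or loss of these receptors. Of 18 measured, 1 was called at +0h in each session, where 6.82% and 4.6% of all genes were called; it was the glycogen phosphorylase Pygm, which rose (0.34, SE 0.08, and 0.29, SE 0.08). At +3h of the ZT0 session 5 rose and 0 fell, and at +3h of the ZT12 session 8 rose and 2 fell, where 13.6% and 17.2% of all genes were called, so that the share over all genes was also larger at +3h. The list medians were 0.10 and 0.26, against -0.0048 and -0.0026 over all genes. Pdk4, which restrains the use of glucose, rose by 1.34 (SE 0.29) and 3.77 (SE 0.31), Ucp3, a mitochondrial carrier, by 1.33 (SE 0.28) and 2.33 (SE 0.29), Lpin1, a phosphatidate phosphatase, by 0.60 and 0.78, and Foxo1, a transcription factor of fasting, by 1.34 and 1.33. Pdk4 stood at 385 CPM at +0h of the ZT0 session against 376 CPM in sedentary ZT0 mice, and at 608 CPM at +0h of the ZT12 session against 575 CPM in sedentary ZT12 mice, without a call. From +0h to +3h it rose by 2.24 (SE 0.29) and 2.34 (SE 0.30). The Pdk4 responses at +3h differed between sessions by 2.44 (SE 0.40, adjusted p = 0.0047).

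Of 10 partners and co-regulators, which include the RXR dimer partners, edgeR called 0 at +0h in either session (1 at an unadjusted p under 0.05 in each), with list medians of 0.0013 and 0.014. These +0h comparisons called 6.82% and 4.6% of all genes. Among 35 of 46 other nuclear receptors that could be tested, 1 rose and 2 fell at +0h of the ZT0 session, and 1 rose and 1 fell at +0h of the ZT12 session, with list medians of -0.09 and -0.04. The riser was the vitamin D receptor Vdr in both, at 1.03 and 1.17 CPM at +0h, against 0.211 and 0.137 CPM in sedentary mice (2.43, SE 0.70, and 3.08, SE 0.74). At +3h 3 rose and 1 fell in the ZT0 session, and 5 rose and 2 fell in the ZT12 session, which is close to the 13.6% and 17.2% called over all genes. Nr6a1, an orphan receptor of germ cells, rose by 0.79 and 1.84, and Ppard, a lipid-sensing receptor, by 0.43 and 0.53.

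In gastrocnemius at ZT4 Ppargc1a was higher with day access, at 144 CPM in day mice against 28.8 CPM in night mice (2.32, SE 0.23, adjusted p = 0.00011). At ZT16 it did not pass (-0.47, adjusted p = 0.40). Its difference of time effects was -2.79 (SE 0.32, adjusted p = 0.00026). Of the 12 cAMP response genes, 4 rose and 0 fell in day mice at ZT4, where 13.1% of all genes were called and 6.36% were higher. Among the 4 were Pde4d (0.41, SE 0.05), Pde4b (0.82, SE 0.10) and Sik1 (0.60, SE 0.15), while Junb (-0.27), Fos (0.18) and Dusp1 (0.03) did not pass. For the difference of time effects 6 of the 12 were called, all negative, where 9.74% of all genes were called and 5.07% were negative, with a median of -0.75 over the list against 0.0083 over all genes. The endothelial markers summed to 224 to 250 CPM in day mice at ZT4, against 266 to 288 CPM in night mice, with all 7 detected, and macrophage markers to 57.1 to 72.5 CPM against 73.2 to 90.0 CPM; their part in these results was not tested. In quadriceps at +0h of the ZT0 session, macrophage markers summed to 109 to 135 CPM, against 77.6 to 91.4 CPM in sedentary ZT0 mice, and adipocyte markers to 159 to 995 CPM, against 90.8 to 405 CPM. At +0h of the ZT12 session the macrophage sums overlapped (93.9 to 108 CPM, against 86.1 to 115 CPM in sedentary ZT12 mice), and adipocyte markers summed to 119 to 457 CPM, against 267 to 1501 CPM. The part of these markers in the +0h results was not tested.

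The genes closest in pattern to each member were found by the root mean square difference of log2 CPM, each gene centred on its mean, over the 24 quadriceps libraries and 11056 genes. The libraries share groups and depth, so these distances describe and do not test. Closest to Nr4a1 were Coq10b, which binds coenzyme Q (0.32), Tob2 of the antiproliferative Tob family (0.36), the small GTPase Rhob (0.40), cyclin L1, Ccnl1 (0.41), and Itprip (0.42). Closest to Nr4a2 were Junb (0.64), the antiproliferative gene Btg2 (0.87), the AP-1 subunits Fosb (0.87) and Fosl2 (0.88), and the zinc finger factor Egr2 (0.93). Closest to Nr4a3 were the metallothionein Mt2 (1.01), the stress factor Atf3 (1.03), Mt1 (1.31), the calcium channel regulator Cbarp (1.41) and the small Maf protein Maff (1.54). The distances between members were 1.21 between Nr4a1 and Nr4a2, 2.37 between Nr4a1 and Nr4a3, and 2.31 between Nr4a2 and Nr4a3. This distance counts the size of a gene's changes as well as their order over libraries. The SD of log2 CPM was 0.85 for Nr4a1, 1.91 for Nr4a2 and 2.59 for Nr4a3, so a large distance need not mean an unlike pattern. Junb, for example, lay 1.21 from Nr4a1 at a Pearson correlation of 0.93. When genes were ranked by Pearson correlation instead, 1 of the 5 was shared for Nr4a1, 3 for Nr4a2 and 2 for Nr4a3.

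Among the neighbours of Nr4a2, Junb averaged 12.2 ± 6.22 CPM at +3h, against 146 ± 15.4 CPM at +0h of the ZT0 session (SD, n = 3 each). Among those of Nr4a3, Mt2 averaged 59.96 ± 24.5 CPM at +3h, against 32.5 ± 6.85 CPM at +0h of the ZT0 session. Atf3 averaged 202 ± 223 CPM at +3h, with single mice from 50.7 to 458 CPM, against 89.0 ± 28.5 CPM at +0h. Maff went the other way, at 10.8 ± 1.61 CPM at +3h, against 22.3 ± 5.16 CPM at +0h of the ZT0 session. On the log2 scale, +3h minus +0h, the 5 neighbours of Nr4a3 differed by 0.88 (Mt2), 1.18 (Atf3), 0.31 (Mt1), -0.88 (Cbarp) and -1.05 (Maff) in the ZT0 session. In the ZT12 session the differences were 1.36 (Mt2), 0.05 (Atf3), 0.78 (Mt1), 0.18 (Cbarp) and -0.87 (Maff). Since these libraries chose the neighbours, their quadriceps values are a description. In gastrocnemius, which did not enter the choice, Atf3 and Maff were called in the same directions as Nr4a3 at ZT4 and in the difference of time effects, and Mt1, Mt2 and Cbarp were not called. Atf3 was higher in day than in night mice at ZT4 by 2.25 (SE 0.29, adjusted p = 0.00038) and Maff by 0.93 (SE 0.13, adjusted p = 0.00016), with differences of time effects of -3.07 (SE 0.41, adjusted p = 0.00064) and -1.93 (SE 0.19, adjusted p = 4.5e-06). Mt2 differed by 0.52 (adjusted p = 0.45) and Cbarp by 0.05 (adjusted p = 0.90) at ZT4. Of the neighbours of Nr4a1 and Nr4a2, Coq10b (0.90 at ZT4, -1.36 in the difference) and Btg2 (0.90, -1.46) were also called in both. Tob2 and Ccnl1 were called in the difference alone, and the others in neither. Over all genes 13.1% were called and 6.36% were higher at ZT4, and 9.74% were called and 5.07% were negative in the difference.

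**Figure D5:**
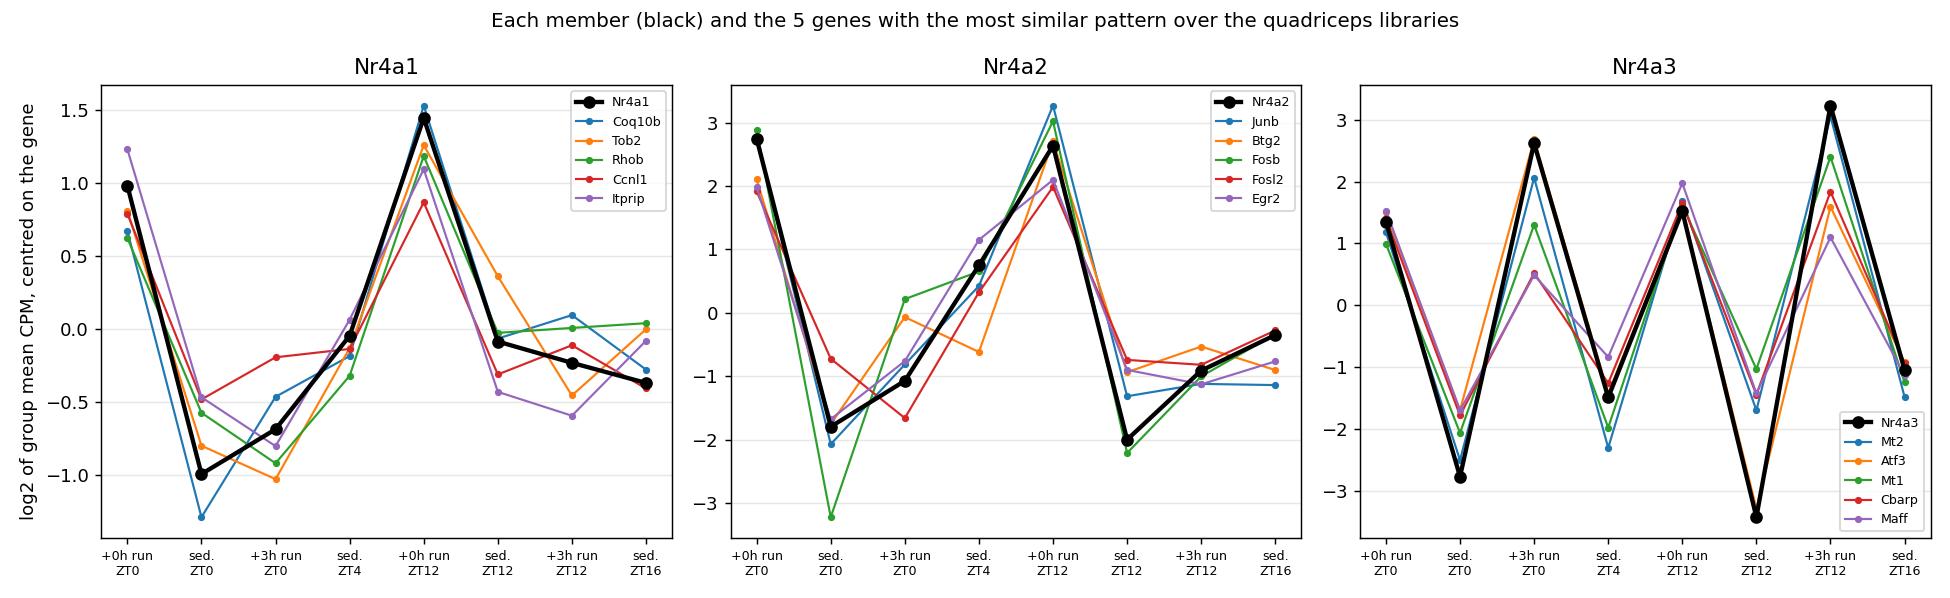
Log2 of the group mean CPM, centred on each gene, over the 8 quadriceps groups for each member (black) and the 5 genes nearest to it in pattern (colours); treadmill groups stand left of the sedentary group each is set against. Neighbours of Nr4a1 and Nr4a2 peak at +0h, and those of Nr4a3 lie above their sedentary groups at +3h too. Of the latter, Maff is lower at +3h than at +0h in both sessions, and Cbarp in the ZT0 session.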

How the data were processed

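Messenger RNA libraries (stranded polyA kit, per the labels' protocols) were sequenced on 2 lanes each, 80 columns for 40 libraries. The values are estimated counts per gene that the authors deposited for each lane; kallisto 0.46.2, DESeq2 1.26.0 and bcl2fastq 2.20.0.422 are named, with builds mm10 and GRCm38.p6, per the submitters' processing notes, which give no roles. The sources used here name no annotation. Lanes were summed here and rounded to whole numbers. Gene identifiers were matched to symbols in a RefSeq table (23614 of 23621 matched; the 7 others, 0.00139% of counts, were kept). The promoter windows come from RefSeq, and exon lengths from the GRCm38 annotation.

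Differences were tested by quasi-likelihood F tests in edgeR 4.0.16 (R 4.3.3, limma 3.58.1; TMM, robust, minimum count 10), with 1 fit for each muscle, with Benjamini-Hochberg adjustment over all tested genes and a threshold of 0.05. Fold changes are log2 values and levels are CPM on TMM-scaled library sizes; log2 CPM for ratios and patterns uses a prior count of 2. Intervals are 95% from the fit. The edgeR code was also run on simulated counts with known changes, with their spread taken from the fits themselves. That run does not show how the fits handle outlying mice. Library descriptions carry a different tag each, read as separate mice; if they were not, p-values would measure technical spread. Replicate numbers were not treated as pairs, since in 0 of 11 comparisons did all same-numbered libraries correlate above 0.1. Single correlations ran from -0.38 (+0h ZT0 against sedentary ZT0) to 0.31 (sedentary ZT12 against ZT0), and with so few libraries this rule cannot exclude pairing. Alternatives were DESeq2 1.42.0, RLE scaling, no filter or a minimum count of 50, the groups of a comparison alone, each lane alone, a replicate block, other sedentary controls, other prior counts and leaving out each library.

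Named genes were the members, the 5 nearest in pattern to each (average log2 CPM of at least 1), up to 4 genes with the smallest p per list and comparison, Ppargc1a and Pdk4. Members, lists, motifs and this rule were chosen with earlier results of these data known. Junb, Fos, Dusp1, Crem, Crtc3 and Foxo1 are in places named beyond the 4 with the smallest p, after their values were seen. Results of 2 genes on these lists are not reported here.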

Additional observations from a re-analysis of the deposited data

Results flagged for a closer look

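In gastrocnemius the change from ZT4 to ZT16 differed between day and night wheel access for 2 members, by the test of the difference itself. For Nr4a3 the difference, day minus night, was -6.35 on the log2 scale (adjusted p = 0.00012): Nr4a3 averaged 1.26 CPM in day mice at ZT16 beside 14.9 CPM at ZT4, and 7.25 CPM in night mice at ZT16 beside 1.00 CPM at ZT4. For Nr4a2 it was -0.99 (adjusted p = 0.041), from levels near 1 CPM. In the 12 sets of 4 gastrocnemius libraries, no library stood apart from the other 3 for any member; quadriceps groups of 3 are too small for that check.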

How the results depend on the processing

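Over 873 refits of members and ratios, 791 kept their direction and their side of the threshold, 37 lost and 15 gained a call, and 30 changed sign, none of them called in either fit. Of 2881 refits of other named genes 280 lost a call and 2 changed sign, both with sedentary ZT16 as control at +0h of the ZT12 session: Pde4b (-0.070) and Nr1d1 (0.46). Calls lost: Nr4a2 at +0h ZT0 against sedentary ZT4 (2.01), Nr4a3 at +3h ZT0 in the fit of its groups alone (4.12), Nr4a2 among sedentary groups likewise (2.75), Nr4a1 between sedentary ZT12 and ZT0 without a filter (0.91), Nr4a3 between day and night at ZT16 without a filter (-2.55), on the first lane (-2.42), with the replicate block (-2.51, adjusted p = 0.075) and in its groups alone (-2.54), and the Nr4a2 difference of time effects on either lane (-1.04 and -1.03). Calls gained: with DESeq2, Nr4a2 at +3h ZT0 (-1.82), Nr4a3 from +0h to +3h of the ZT12 session (1.70) and Nr4a1 (0.95) and Nr4a3 (2.39) among sedentary groups; in the groups alone, Nr4a3 from +0h to +3h of the ZT0 session (1.26), Nr4a2 between day and night at ZT4 (0.59) and Nr4a1 between ZT16 and ZT4 in day mice (-0.34); on the first lane, Nr4a2 between day and night at ZT4 (0.74). Signs turned for Nr4a2 in the difference of +0h responses on the first lane (-0.11), for Nr4a1 (0.31) and Nr4a2 (0.73) at +3h ZT0 against sedentary ZT0, for Nr4a1 (-0.15) and Nr4a2 (1.10) at +3h ZT12 against sedentary ZT12, and for Nr4a3 from +0h to +3h relative to sedentary controls (-0.026 and -0.69). The causes were not tested.

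Leaving out 1 library at a time gave, for Nr4a1, -0.91 to -0.42 at +3h ZT0, -0.10 to 0.49 at +3h ZT12, 0.89 to 1.22 among sedentary groups, 0.83 to 1.04 between sedentary ZT12 and ZT0, -0.069 to 0.21 between day and night at ZT4 and -0.13 to 0.23 between ZT16 and ZT4 in night mice. For Nr4a2 it gave -0.22 to 0.49 in the difference of +0h responses, 0.51 to 2.41 in that of +3h responses, -2.32 to -1.07 at +3h ZT0, -0.98 to 0.60 at +3h ZT12, 2.00 to 3.25 among sedentary groups, -0.60 to 0.10 between sedentary ZT12 and ZT0, -0.010 to 0.23 between ZT16 and ZT4 in night mice and -1.11 to -0.87 in the difference of time effects. For Nr4a3 it gave 0.017 to 1.29 in the difference of +0h responses, -0.36 to 1.16 in the difference of +3h responses, 1.92 to 2.88 among sedentary groups, -1.12 to 0.15 between sedentary ZT12 and ZT0 and -2.81 to -2.20 between day and night at ZT16, and for the ratio of Nr4a2 to Nr4a1 in treadmill mice 1.00 to 1.29. The other member results kept their call and direction whichever library was left out, the +0h rises of all 3 members and the +3h rise of Nr4a3 among them.

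The replicate block, for numbers not shown to pair the mice, changed no other call of a member. In fits of the groups alone, calls over all genes numbered 529 against 1029 in the joint fit at +0h ZT0, 385 against 695 at +0h ZT12, 1105 against 2052 at +3h ZT0, 654 against 2133 from +0h to +3h of the ZT0 session and 35 against 82 between day and night at ZT16, where DESeq2 called 369. Nr4a2 in gastrocnemius rests on 26 to 76 counts a library, which limits the precision of its values.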
